A study of Mus musculus with 6 samples.

Results

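Fatty acid synthesis and desaturation was described by 10 genes, named as a list of lipogenesis symbols and found in the count table through their Ensembl identifiers. All 10 matched 1 identifier each, out of 55335 in the table: Fasn, Acaca, Scd1, Scd2, Fads1, Fads2, Elovl5, Elovl6, Srebf1 and Mecr. They were measured by RNA-seq in CD8+ T cells with the P14 transgenic receptor, which recognises the GP33-41 peptide, after transfer into C57BL/6 mice that carried B16 melanomas expressing that peptide. Transfer was on day 11 after implantation, and the labels give an age of 10 weeks, strain C57BL/6 and genotype P14 TCR transgenic for all samples. The groups were donor cells sorted from the tumor (P14 TIL, n = 3 libraries) and from the spleen of tumor-bearing mice (P14 Sp, n = 3 libraries). Both groups carry the same receptor and were sorted by FACS, but only the tumor preparation went through Percoll. The spleen is an organ rich in B cells and macrophages. The sample description codes end alike within a tissue and differently between tissues, and if that ending marks a batch, tissue and batch cannot be told apart. The labels do not say that each library came from its own mouse, so p-values measure the spread between these libraries, which may be technical.

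Cells make palmitate from acetyl-CoA in the cytosol: acetyl-CoA carboxylase, encoded by Acaca, makes malonyl-CoA, and fatty acid synthase, encoded by Fasn, joins it into a saturated chain. Elongases of the endoplasmic reticulum lengthen the chain, stearoyl-CoA desaturases such as Scd1 and Scd2 place the first double bond, and Fads1 and Fads2 add double bonds to polyunsaturated chains. SREBP-1, the product of Srebf1, is a membrane-bound transcription factor that is cut free when sterols are low and drives many of these genes. A separate pathway in mitochondria, whose last step is carried out by Mecr, makes the precursor of lipoic acid. CD8+ T cells raise cytosolic fatty acid synthesis when they divide.

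Promoter windows of 4 members, called in both directions, are shown because each holds the NF-Y box CCAAT, a motif common at lipogenic promoters. They were picked for that motif: of the 3 windows listed for Srebf1, 2 hold it, 1 of them is shown, and the other start lacks it. Each window runs from 250 bases before to 50 bases after a transcription start (RefSeq, GRCm38.p6, the assembly also called mm10), 5′ to 3′ on the gene's strand, and capitals mark every match to a searched motif on either strand.
Fasn, chr11:120824498-120824797, minus strand: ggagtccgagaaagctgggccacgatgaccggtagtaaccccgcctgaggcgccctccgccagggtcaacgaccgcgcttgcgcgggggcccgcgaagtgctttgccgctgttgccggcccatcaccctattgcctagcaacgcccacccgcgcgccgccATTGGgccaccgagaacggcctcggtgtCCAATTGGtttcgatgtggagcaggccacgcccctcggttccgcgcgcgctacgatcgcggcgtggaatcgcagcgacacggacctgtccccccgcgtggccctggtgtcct
Mecr, chr4:131843221-131843520, plus strand: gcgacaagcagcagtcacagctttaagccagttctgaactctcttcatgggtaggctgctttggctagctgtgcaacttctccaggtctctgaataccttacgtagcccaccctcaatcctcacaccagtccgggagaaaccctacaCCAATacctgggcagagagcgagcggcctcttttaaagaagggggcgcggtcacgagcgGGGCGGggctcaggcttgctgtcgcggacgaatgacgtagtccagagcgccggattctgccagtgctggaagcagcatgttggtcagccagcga
Elovl5, chr9:77917115-77917414, plus strand: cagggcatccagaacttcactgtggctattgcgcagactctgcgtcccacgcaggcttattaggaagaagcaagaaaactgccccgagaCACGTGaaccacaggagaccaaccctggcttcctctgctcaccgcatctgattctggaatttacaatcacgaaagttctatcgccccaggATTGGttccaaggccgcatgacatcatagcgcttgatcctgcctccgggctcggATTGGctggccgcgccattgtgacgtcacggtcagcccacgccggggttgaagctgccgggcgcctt
Srebf1, chr11:60210422-60210721, minus strand: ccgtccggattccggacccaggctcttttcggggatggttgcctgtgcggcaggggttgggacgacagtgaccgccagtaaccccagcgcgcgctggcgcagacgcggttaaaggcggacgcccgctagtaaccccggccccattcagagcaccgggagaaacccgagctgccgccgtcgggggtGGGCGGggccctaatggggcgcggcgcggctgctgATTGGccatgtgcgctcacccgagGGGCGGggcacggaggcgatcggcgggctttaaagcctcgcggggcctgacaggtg

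The Fasn window holds CCAAT or its complement 3 times, at 90, 62 and 59 bases before the start, and the last 2 share letters. In the Elovl5 window the box stands at 71 and 17 bases before the start, beside an E-box (CACGTG) at 161 bases. Mecr has 1 CCAAT at 103 bases and 1 GC box (GGGCGG) at 44 bases before the start, and the Srebf1 window has 1 CCAAT complement at 30 bases and GC boxes at 65 and 6 bases before the start. Windows were matched for 7 of the 10 members, and 4 of these hold CCAAT in some window, 3 hold GGGCGG, 1 holds CACGTG and 0 hold the sterol regulatory element letters TCACNCCAC. Of all 32851 windows of this length, 37.4% hold CCAAT, 35.7% GGGCGG, 7.15% CACGTG and 1.24% TCACNCCAC. These shares are per window, whereas the members are counted per gene and Srebf1 has 3 windows, so the measures are not alike. In the GENCODE annotation of mm10, Fasn (ENSMUSG00000025153.9) spans 120805846 to 120824547 and Srebf1 (ENSMUSG00000020538.15) 60199089 to 60222581, both on the minus strand of chromosome 11. Mecr (ENSMUSG00000028910.12) spans 131843470 to 131867786 of chromosome 4 and Elovl5 (ENSMUSG00000032349.13) 77917364 to 77984519 of chromosome 9, both on the plus strand. These letters describe the windows only, and counts per gene do not tell which of the 3 listed starts of Srebf1 was used.

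Library totals were 36198681 to 38263483 counts in tumor and 35095261 to 37650999 in spleen. Tumor libraries differed among themselves more than spleen libraries did (biological coefficient of variation 10.5% in tumor, 3.21% in spleen), and tumor replicate 3 was the most distant of the tumor libraries. T cell identity was checked first, with Cd3e averaging 594 ± 7.4 CPM in tumor against 634 ± 4.66 CPM in spleen (CPM, a count scaled by its library total; SD, n = 3 each). Of 5 CD8 T cell markers, Cd3d, Cd3e and Cd3g were not called, Cd8a was higher and Cd8b1, the most abundant, lower, at 751 ± 36.9 CPM in tumor libraries against 1170 ± 12 CPM in spleen libraries. Markers of other cells differed: 10 of 10 B cell markers, 10 of 10 macrophage and monocyte markers, 5 of 5 neutrophil markers and 5 of 5 dendritic cell markers were lower in tumor. Summed B cell markers reached 10.7 to 12.8 CPM in tumor, against 548 to 565 CPM in spleen, led by Cd79b and Cd79a. Summed macrophage markers reached 40 to 41.7 CPM in tumor, against 252 to 268 CPM in spleen, led by Csf1r and Lyz2. In tumor, Csf1r (11.4 CPM) shares 873 of 5774 exon bases with Hmgxb3 on the other strand. Itgam (10.9 CPM) shares 3450 of 5024 with Gm49368 on the same strand, so both values are uncertain. Lyz2 had 10.2 CPM and Cd68 6.06 CPM in tumor, and the other macrophage markers were under 1 CPM there. Cr2, Clec9a and Siglech had 0 counts in tumor. Neutrophil markers, led by Csf3r in tumor and S100a9 in spleen, summed to 0.47 to 0.74 CPM in tumor, against 16.7 to 19.3 CPM in spleen. Dendritic cell markers, led by Xcr1, summed to 6.72 to 7.21 CPM in tumor, against 11.2 to 13.9 CPM in spleen. Melanoma markers summed to 9.38 to 10.4 CPM in tumor, against 18.9 to 21 CPM in spleen, mostly Pmel. Of the 2 melanoma markers tested, Dct was higher in tumor (0.46 ± 0.018 CPM, against 0.00885 ± 0.0153 CPM in spleen) and Pmel lower. The untested markers all had more counts in tumor: Tyrp1 (64 in tumor, 0 in spleen), Mlana (19 and 2), Sox10 (16 and 2) and Tyr (5 and 2). Pmel shares 105 of 2292 exon bases with Dgka and 34 with Cdk2 on the other strand. Its counts, and so the sum, are uncertain if counting ignored strand. Of 4 erythroid markers, led by Hba-a1, 3 were higher and 1 was lower, and they summed to 131 to 144 CPM in tumor, against 108 to 111 CPM in spleen. Among 5 fibroblast and endothelial markers, 1 of 2 tested was lower (Pecam1, the most abundant, which T cells also express), and Pdgfra had 0 counts in tumor. Cd4 was lower while Foxp3, the more abundant of that pair, was not called, and neither NK cell marker was called (Ncr1 and Klrb1c, the more abundant). Foxp3 shares 853 of 4577 exon bases with Flicr on the same strand, so its value is uncertain. On the other strand it shares 590 with Ccdc22, 373 with Gm36995 and 266 with Ppp1r3f. In bulk RNA, fewer cells of a type and less RNA per cell cannot be told apart.

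Tumor libraries had more transcript of Acaca and Fasn, the enzymes that start and finish de novo synthesis. They also had more of Scd2, Fads1, Fads2 and mitochondrial Mecr, far less Scd1, and less Elovl5 and Srebf1. By edgeR's quasi-likelihood test with Benjamini-Hochberg adjustment over all 19783 genes tested, 6 of 10 members were higher in tumor and 3 lower (adjusted p below 0.05). Of all genes tested, 34.8% were higher and 35.9% lower, so calls in both directions were common throughout these libraries. The median log2 fold change was 0.37 over the 10 members and -0.02 over all genes tested. Tumor libraries stood above all spleen libraries for 6 members and below them for 4, against 35.1% and 39.4% of all genes tested. All 10 members passed the filter on low counts. The calls of Fads2 and Srebf1 were the least secure, as given with their values.

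**Figure D1:**
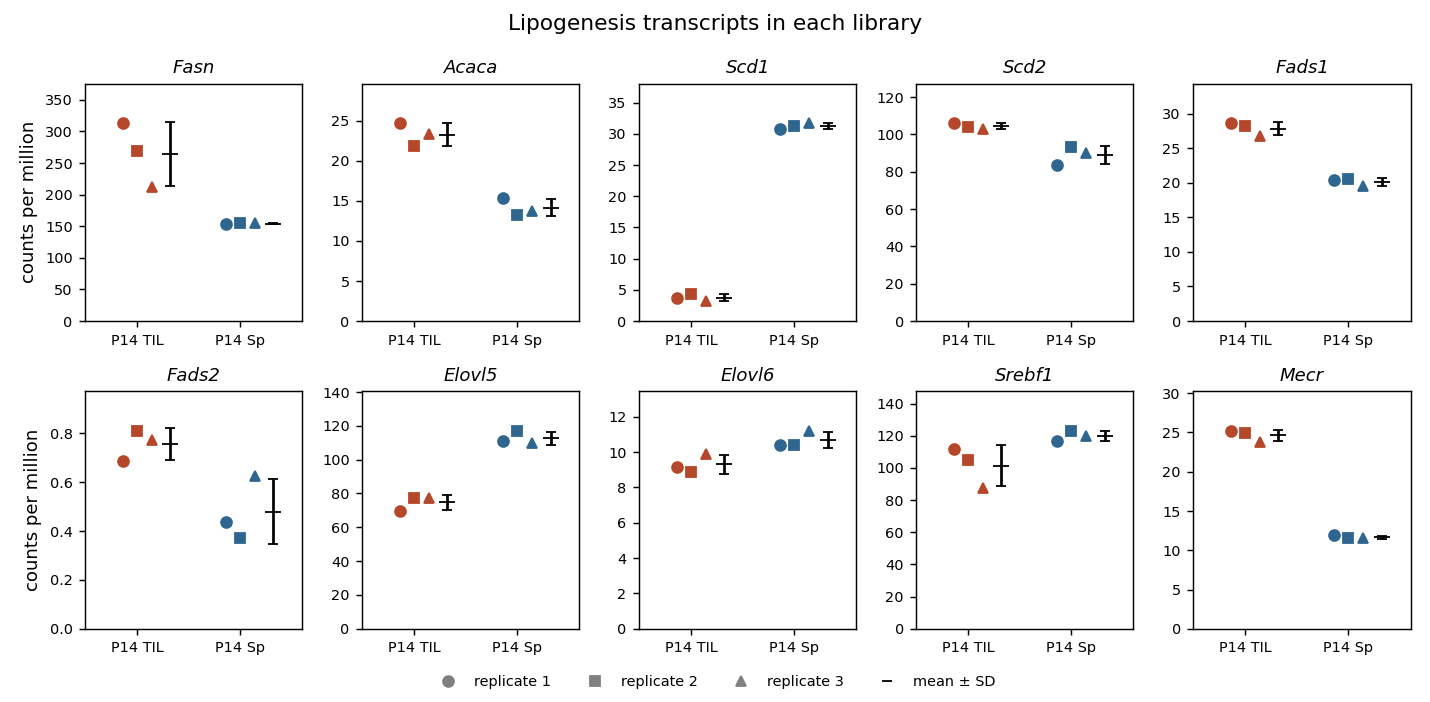
CPM, counts scaled by the library total (y axis, linear from 0, own scale per gene) of the 10 genes in the 3 P14 TIL and 3 P14 Sp libraries (x axis), with mean ± SD beside the points. Scd1 lies between 3.18 and 4.36 CPM in tumor and at 30.8 to 31.7 CPM in spleen, while Fasn, Acaca, Scd2, Fads1, Fads2 and Mecr lie higher in every tumor library than in any spleen library.

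Fasn, the multifunctional synthase, had 313, 269 and 212 CPM in P14 TIL-1, TIL-2 and TIL-3, against 153, 155 and 155 CPM in P14 Sp-1, Sp-2 and Sp-3. The spleen libraries were nearly level and every tumor library was above them, but TIL-3 lay well below TIL-1. The mean was 265 ± 50.4 CPM in tumor, against 154 ± 1.49 CPM in spleen, a 1.75-fold rise (log2 0.81, SE 0.12, 95% interval 0.55 to 1.07, adjusted p = 7.3e-05). Without tumor replicate 3 the log2 fold change was 0.96 (adjusted p = 9.1e-09).

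Acaca (ENSMUSG00000020532.18, chromosome 11, 84129672 to 84401651), the carboxylase that supplies malonyl-CoA, had 24.7, 21.8 and 23.3 CPM in the tumor libraries, against 15.4, 13.3 and 13.8 CPM in the spleen libraries. The groups were separate and both were even within themselves. It rose 1.68-fold (log2 0.75, SE 0.09, adjusted p = 1.3e-05). The counts of Fasn over those of Acaca, uncorrected for length, gave overlapping ratios, 9.13 to 12.6 in tumor and 9.92 to 11.7 in spleen. The mean log2 ratio differed by 0.04 between tissues (exact permutation p = 0.8, 2-sided, adjusted over 4 ratios 0.8), a design whose smallest possible p is 0.1.

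The stearoyl-CoA desaturases moved in opposite directions. Scd1 had 3.7, 4.36 and 3.18 CPM in the tumor libraries, against 30.8, 31.3 and 31.7 CPM in the spleen libraries, from 115 to 167 counts in tumor and 1113 to 1178 in spleen. It was 8.15-fold lower in tumor (log2 -3.03, SE 0.11, 95% interval -3.27 to -2.79, adjusted p = 9.0e-10), the largest difference among the 10 genes. Scd2 had 106, 104 and 103 CPM in tumor, against 83.5, 93.2 and 90.2 CPM in spleen. Every tumor library was above every spleen library, by a small margin, and the rise was 1.19-fold (log2 0.25, SE 0.06, adjusted p = 0.0029).

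Per kilobase of exon, Scd2 was the most abundant desaturase among the members in both tissues, at 19 ± 0.315 CPM per kb in tumor and 16.3 ± 0.903 CPM per kb in spleen. Uncorrected for length, it had 23.7 to 32.3 times the counts of Scd1 in tumor libraries and 2.72 to 2.98 times in spleen libraries. The mean log2 ratio of Scd2 to Scd1 was 4.8 ± 0.22 in tumor and 1.51 ± 0.07 in spleen (SD, n = 3 each), and library scaling cancels in it. The difference of 3.29 had the smallest exact permutation p that 3 against 3 allows, 0.1 (adjusted over 4 ratios 0.2). Scd3 (5.66 ± 0.503 CPM in tumor, 5.91 ± 0.418 CPM in spleen) and Scd4 (3.45 ± 0.505 CPM in tumor, 3.84 ± 0.484 CPM in spleen), further desaturases of the family, were not called. Scd1 to Scd4 together summed to 119, 118 and 114 CPM in the tumor libraries, against 123, 134 and 132 CPM in the spleen libraries, a sum added after the values were seen. Scd1 made up 3.2 ± 0.468% of it in tumor and 24.1 ± 0.865% in spleen.

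Both genes lie on mouse chromosome 19 in mm10, Scd1 (ENSMUSG00000037071.3) at 44394455 to 44407879 and Scd2 (ENSMUSG00000025203.6) at 44293674 to 44306864, with 87.6 kb between them. The 4 Scd genes are close paralogs, and the treatment of multi-mapped reads is unstated in the labels, so their separate values are uncertain to that extent. Markers of other cells were lower in the same tumor libraries as Scd1, among them Cd79a (0.603 ± 0.178 CPM in tumor, 118 ± 1.19 CPM in spleen) and Lyz2 (10.2 ± 0.799 CPM in tumor, 91.1 ± 2.87 CPM in spleen). Their part in the Scd1 difference was not tested.

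**Figure D2:**
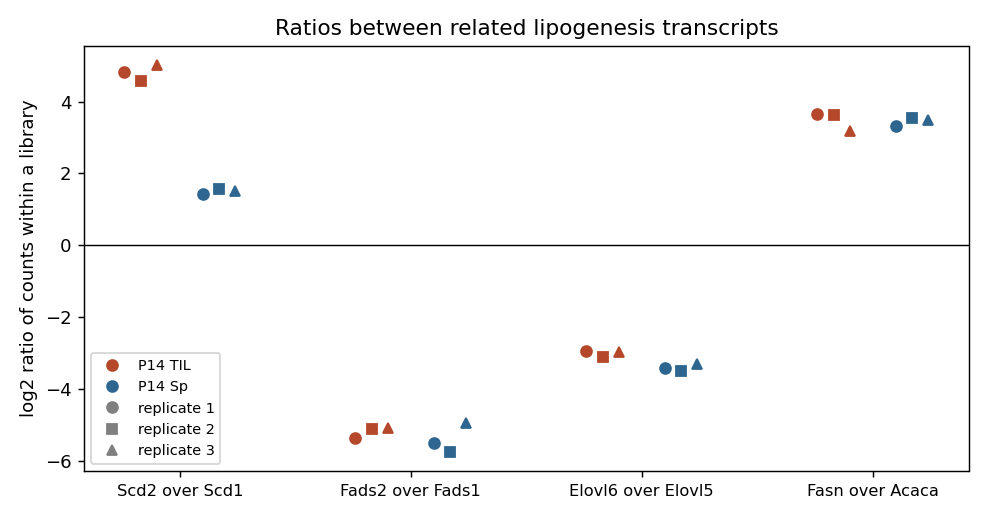
Log2 ratio of the counts of 2 related genes within a library (y axis, 0.5 added to each count) for 4 pairs (x axis), 3 P14 TIL libraries left and 3 P14 Sp libraries right in each pair. Scd2 over Scd1 is 4.56 to 5.01 in tumor and 1.44 to 1.57 in spleen, while Fasn over Acaca and Fads2 over Fads1 overlap between the tissues.

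Fads1, a desaturase of polyunsaturated fatty acids, had 28.6, 28.2 and 26.7 CPM in tumor, against 20.4, 20.5 and 19.5 CPM in spleen. The groups were far apart relative to their spread, and it rose 1.41-fold (log2 0.49, SE 0.07, adjusted p = 7.7e-05). Its neighbour Fads2, which acts in the same chain of reactions, had few reads, with 25, 31 and 28 counts in the tumor libraries and 16, 14 and 22 counts in the spleen libraries. That is 0.686, 0.81 and 0.774 CPM in tumor, against 0.438, 0.372 and 0.627 CPM in spleen. It was called higher at log2 0.69 (SE 0.27, adjusted p = 0.037), but the call did not survive every library left out. Omitting tumor replicate 2 gave 0.64 (adjusted p = 0.099), and omitting tumor replicate 3 gave 0.70 (adjusted p = 0.064). Omitting spleen replicate 1 gave 0.63 (adjusted p = 0.11), and omitting spleen replicate 2 gave 0.54 (adjusted p = 0.15). DESeq2 (adjusted p = 0.13), a replicate block (adjusted p = 0.059) and upper-quartile scaling (adjusted p = 0.051) did not call it either. Fads1 (ENSMUSG00000010663.5) lies on chromosome 19 at 10182888 to 10196877 and Fads2 (ENSMUSG00000024665.8) at 10062765 to 10101746. Their log2 ratio did not separate the tissues (-5.18 ± 0.15 in tumor, -5.39 ± 0.41 in spleen, difference 0.21, exact permutation p = 0.6, adjusted 0.8).

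Elovl5, the elongase of polyunsaturated chains, was lower in tumor, at 69.8, 77.2 and 77.2 CPM in tumor, against 111, 117 and 110 CPM in spleen. The highest tumor library was well below the lowest spleen library, and the difference was 1.48-fold (log2 -0.56, SE 0.06, adjusted p = 5.0e-06). Elovl6 (ENSMUSG00000041220.10, chromosome 3, 129532355 to 129638495), which lengthens palmitate to stearate, had 9.16, 8.89 and 9.92 CPM in tumor, against 10.4, 10.4 and 11.2 CPM in spleen. Its tumor libraries were all below the spleen libraries, yet the difference did not pass (log2 -0.17, 95% interval -0.36 to 0.03, adjusted p = 0.12). It passed with upper-quartile scaling (-0.22, adjusted p = 0.047) and among genes of at least 5 CPM only (-0.22, adjusted p = 0.044). The log2 ratio of Elovl6 to Elovl5 was -3.0 ± 0.1 in tumor and -3.4 ± 0.1 in spleen, without overlap (difference 0.40, exact permutation p = 0.1, adjusted 0.2).

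Srebf1 had 112, 105 and 87.5 CPM in tumor, against 117, 123 and 120 CPM in spleen. All tumor libraries were lower, and TIL-3 was lowest by a clear gap. The difference was small (log2 -0.21, SE 0.09, 95% interval -0.41 to -0.02, adjusted p = 0.047), and it was lost when any 1 library other than tumor replicate 1 was left out. Without tumor replicate 3 it was -0.10 (adjusted p = 0.081), without tumor replicate 2 -0.23 (adjusted p = 0.078), and without spleen replicate 1, 2 or 3 -0.23, -0.20 and -0.21 (adjusted p = 0.077, 0.12 and 0.11). Exons of Srebf1 share 109 of 5634 bases with Rai1 on the other strand, and Elovl6 shares 34 of 6431 with Gm35986. The library kit was stranded per the labels, whereas no label states whether counting used strand.

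Mecr, the mitochondrial enoyl reductase, showed the largest rise of the 10 genes. It had 25.2, 24.9 and 23.8 CPM in tumor, against 11.9, 11.6 and 11.5 CPM in spleen. Both groups were level and far apart, a 2.15-fold difference (log2 1.11, SE 0.07, 95% interval 0.94 to 1.27, adjusted p = 1.5e-07).

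**Figure D3:**
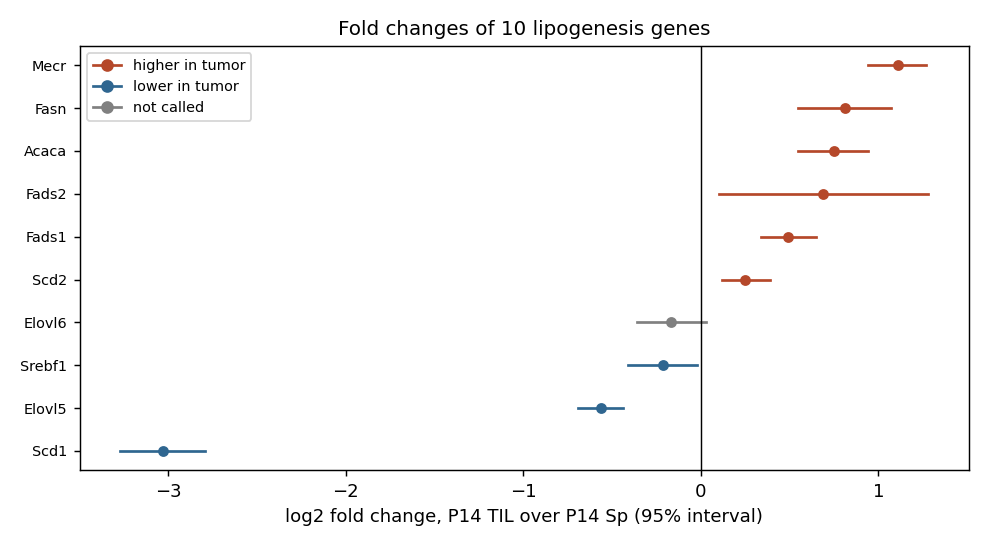
Log2 fold change of each of the 10 genes, P14 TIL over P14 Sp (x axis), with its 95% interval from edgeR (n = 3 libraries per group); colours give the call at an adjusted p of 0.05. Mecr is at 1.11 and Fasn at 0.81 on the higher side, and Scd1 stands alone at -3.03.

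Per kilobase of annotated exon, the order of the members differed between the tissues. In tumor Fasn came first at 24.2 ± 4.6 CPM per kb, overlapping with Elovl5 at 21.2 ± 1.22, followed by Scd2 at 19 ± 0.315 and Srebf1 at 18 ± 2.23, which overlapped each other. Mecr at 8.1 ± 0.239 and Fads1 at 5.78 ± 0.212 CPM per kb followed without overlap, then Elovl6 at 1.45 ± 0.0831 and Acaca at 1.36 ± 0.0846 with overlap, Scd1 at 0.766 ± 0.122 and Fads2 at 0.23 ± 0.0194. In spleen Elovl5 led at 32 ± 0.987 CPM per kb, before Srebf1 at 21.3 ± 0.483, Scd2 at 16.3 ± 0.903 and Fasn at 14.1 ± 0.136. Scd1 was the fifth at 6.39 ± 0.0969 CPM per kb in spleen, ahead of Fads1 at 4.19 ± 0.111, Mecr at 3.84 ± 0.0688, Elovl6 at 1.66 ± 0.0728, Acaca at 0.83 ± 0.0644 and Fads2 at 0.145 ± 0.0402. No neighbours in the spleen order overlapped. Exon length counts all annotated isoforms, so a gene read mainly from a short isoform is understated.

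Tumor replicate 3 was the lowest tumor library for 5 of the 8 members with a mean of at least 5 CPM in both tissues, and tumor replicate 1 the highest for 6 of 8. Over all 11714 genes of that level, replicate 3 was lowest for 38.9% and replicate 1 highest for 32.6%. The median coefficient of variation of these 8 members was 5.73% in tumor and 2.87% in spleen, near the values over all such genes (7.35% in tumor and 3.47% in spleen). Fasn, Srebf1 and 2 regulators outside the members, Srebf2 (317, 298 and 207 CPM in TIL-1, TIL-2 and TIL-3) and Scap (165, 150 and 130 CPM), were all lowest in TIL-3. Those 2 were picked with their values known. Srebf2 encodes the sterol-responsive relative of SREBP-1 and was not called (274 ± 58.7 CPM in tumor, 264 ± 2.29 CPM in spleen, log2 0.08, adjusted p = 0.57), but it was without tumor replicate 3 (0.27, adjusted p = 8.9e-05).

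A further 49 genes of the pathway, in 6 lists, were set beside the members. Of these 41 were tested, 14 were higher in tumor and 11 lower, which is 34.1% and 26.8%, near or below the 34.8% and 35.9% of all genes. Their median log2 fold change was -0.02.

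Of the genes that supply acetyl-CoA and NADPH, 2 of 6 tested were higher and 2 lower. Slc25a1, the mitochondrial citrate carrier, rose 1.46-fold (34.2 ± 2.45 CPM in tumor, 24 ± 1.45 CPM in spleen, adjusted p = 8.9e-05). Pgd, an NADPH-producing dehydrogenase, was called 1.14-fold higher, but its libraries overlapped. They had 110, 115 and 96.8 CPM in tumor, against 95, 95.5 and 97.1 CPM in spleen. Acss2, which makes acetyl-CoA from acetate, was 3.01-fold lower (22.2 ± 1.83 CPM in tumor, 68 ± 1.82 CPM in spleen, adjusted p = 9.2e-09). Idh1, a cytosolic NADPH source, was 5.47-fold lower (2.18 ± 0.404 CPM in tumor, 12.2 ± 0.245 CPM in spleen, adjusted p = 1.9e-08). Acly, which splits citrate into acetyl-CoA, was not called (298 ± 25.6 CPM in tumor, 276 ± 4.49 CPM in spleen, adjusted p = 0.088), but it was without tumor replicate 3 (0.23, adjusted p = 0.00013). G6pdx was not called (log2 -0.02, 95% interval -0.14 to 0.10). Me1, a malic enzyme with 2 counts in all tumor libraries together and 9 in all spleen libraries, was not tested.

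Partners of the carboxylase and the synthase were higher for 1 of 5 tested and lower for 3. Aasdhppt, which loads the carrier domain of fatty acid synthase, was called higher (log2 0.47, adjusted p = 0.0094). Its libraries overlapped, at 13.2, 17.7 and 20.9 CPM in tumor, against 12.9, 13.5 and 11.7 CPM in spleen. Mlycd, which breaks malonyl-CoA down again (-0.56, adjusted p = 0.00025), Hlcs, which attaches biotin to the carboxylases (-0.40, adjusted p = 0.0037), and Mid1ip1, an activator of acetyl-CoA carboxylase (-0.24), were lower. Acacb, the mitochondrial-surface carboxylase, had 0.987, 0.418 and 0.221 CPM in tumor, against 1.04, 1.01 and 1.14 CPM in spleen, and was not called (-0.94, adjusted p = 0.052). Its tumor libraries spread widely, and without tumor replicate 1 it was called lower (-1.68, adjusted p = 0.00053). Thrsp, with 2 counts in tumor and 6 in spleen, was not tested.

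The elongation cycle had the highest share of higher genes of the 6 lists, 5 of 8 tested with 1 lower. That is 62.5% and 12.5%, against 34.8% and 35.9% of all genes tested, in a list of few genes. Hacd3 (88.8 ± 3.87 CPM in tumor, 56.6 ± 1.61 CPM in spleen, 1.6-fold, adjusted p = 1.0e-06) and Hacd2 (22.1 ± 0.862 CPM in tumor, 12.7 ± 0.578 CPM in spleen, 1.78-fold, adjusted p = 1.8e-06), dehydratases of the cycle, rose. So did Hsd17b12, its keto reductase (2.06-fold), Tecr, its last reductase (1.23-fold), and Hacd1, at under 1 CPM in both tissues (log2 2.09). Elovl7 was 5.16-fold lower (1.66 ± 0.382 CPM in tumor, 8.7 ± 0.637 CPM in spleen, adjusted p = 1.2e-07). The elongases Elovl2 (3 counts in tumor, 0 in spleen), Elovl3 (0 counts in both) and Elovl4 (24 counts in tumor, 5 in spleen) were not tested. With 0 counts in a single library, a level of up to 0.0855 CPM in it (3 counts in the smallest library) is still possible. The called genes of the reduction and dehydration steps were thus higher, whereas the called elongases, Elovl5 and Elovl7, were lower.

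Among the other desaturases and their electron donors, 1 of 5 tested was higher and 1 lower. Cyb5b, an outer mitochondrial cytochrome b5, rose (0.23, adjusted p = 0.0027), and Cyb5a, the microsomal form, was lower (-0.18, adjusted p = 0.034). Fads3 and Fads6 had at most 24 counts over a tissue and were not tested. In mitochondrial synthesis and lipoylation 3 of 8 were higher and 1 lower. That is 37.5% and 12.5%, against 34.8% and 35.9% of all genes tested. Mcat (-0.03, adjusted p = 0.74), Oxsm (-0.22, adjusted p = 0.052), Cbr4 (0.28, adjusted p = 0.092) and Lipt2 (0.42, adjusted p = 0.17) were not called. Ndufab1, the acyl carrier protein on which the chain is built, rose 1.93-fold (54.1 ± 5.91 CPM in tumor, 28.6 ± 1.84 CPM in spleen, adjusted p = 1.2e-06), beside Mecr, and Lipt1, a lipoyl transferase (0.48, adjusted p = 0.021), and Lias, the lipoyl synthase (0.20, adjusted p = 0.026), rose by less. Hsd17b8, which GENCODE names H2-Ke6 and which shares 1419 of 1643 exon bases with Gm20427 on the same strand, was counted 1.8-fold lower (adjusted p = 9.0e-07), a value that is uncertain for that reason.

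Regulators of SREBP and of lipogenesis were higher for 2 of 9 tested and lower for 3. Scap, the escort protein of SREBPs (148 ± 17.4 CPM in tumor, 115 ± 1.92 CPM in spleen, adjusted p = 0.0014), and Insig1, which holds that complex in the endoplasmic reticulum (0.30, adjusted p = 0.010), were higher. The proteases that cut SREBPs, Mbtps1 (-0.27, adjusted p = 0.0019) and Mbtps2 (-0.44, adjusted p = 0.0018), were lower, but Mbtps2 shares 2867 of 10105 exon bases with Yy2 on the same strand and is uncertain for that reason. Nr1h3, the liver X receptor alpha gene, was 19.3-fold lower, at 1.07, 0.653 and 1.02 CPM in tumor, against 17.7, 18.2 and 18.1 CPM in spleen (adjusted p = 6.1e-10). Its relative Nr1h2 was not called (127 ± 14 CPM in tumor, 130 ± 6.11 CPM in spleen), and Mlxipl, with 13 counts in tumor and 6 in spleen, was not tested. Macrophages are known to express Nr1h3, and the summed macrophage markers were 40 to 41.7 CPM in tumor, against 252 to 268 CPM in spleen. The part of other cells in the lower values of Nr1h3, Idh1, Acss2, Elovl7, Elovl5 and Srebf1 was not tested.

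**Figure D4:**
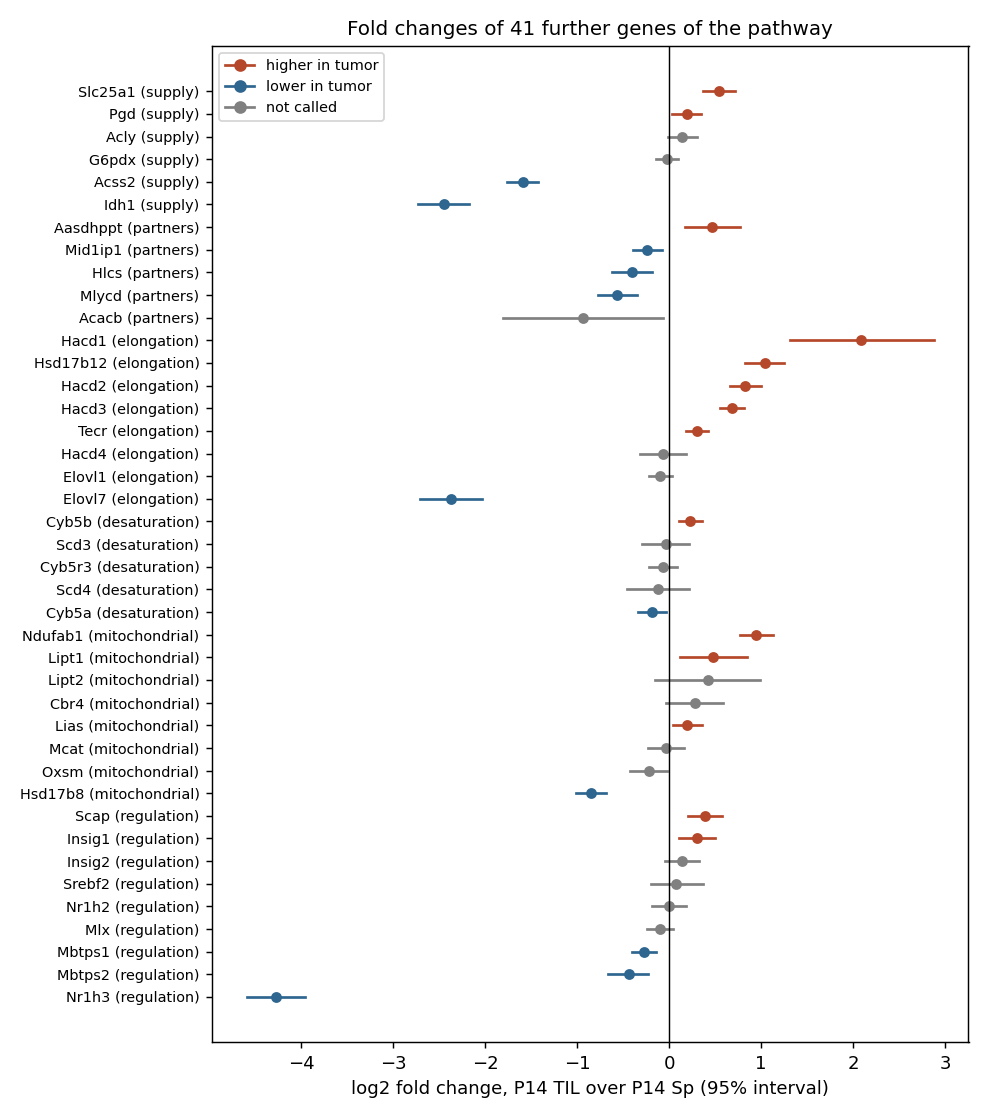
Log2 fold change, P14 TIL over P14 Sp (x axis), of the 41 tested pathway genes outside the members, with 95% intervals from edgeR (n = 3 libraries per group), grouped by list and coloured by call. Elongation cycle genes other than the elongases lie mostly on the higher side, and Nr1h3 (-4.27), Idh1 (-2.45), Elovl7 (-2.37) and Acss2 (-1.59) lie farthest on the lower side.

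Of the 25 pathway calls, 5 were lost when 1 library was left out. Pgd (0.19 with all libraries, adjusted p = 0.031) went to an adjusted p of 0.070 to 0.13 when tumor replicate 2 or any spleen replicate was omitted. Cyb5a went to 0.080 to 0.13 on omitting tumor replicate 1, tumor replicate 2 or any spleen replicate, and Lias to 0.061 to 0.10 on omitting tumor replicate 2 or any spleen replicate. Lipt1 went to 0.056 to 0.087 on omitting tumor replicate 2, spleen replicate 1 or spleen replicate 2, and Insig1 to 0.058 on omitting spleen replicate 1. Besides Acacb, Srebf2 and Acly, 4 uncalled genes passed when 1 tumor library was omitted. These were Cbr4 (0.42, adjusted p = 0.0085) and Insig2 (0.20, adjusted p = 0.047) on omitting replicate 1, and Oxsm (-0.24, adjusted p = 0.035) and Mlx (-0.13, adjusted p = 0.048) on omitting replicate 3. Of the called pathway genes, Mid1ip1 shares 543 of 2128 exon bases with Gm14493 on the other strand, Scap 985 of 7443 with 5830462I19Rik and Lipt1 262 of 2051 with Mitd1. Acss2 likewise shares 395 of 10163 with Gss, 335 with Acss2os and 197 with Ggt7, and Ndufab1 269 of 6883 with Gm44986. Lias (43 of 4570, with Gm43311) and Hacd2 (32 of 3749, with Gm21691) share less. Reads of such pairs cannot be told apart if counting ignored strand. The called gene Tecr overlaps D830024N08Rik and Gm18001 on the other strand and Gm45823 on the same strand. Its shared exon bases were not measured, because its identifier version was unmatched.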

How the data were processed

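RNA was measured in 6 libraries, grouped by the tissue in their titles. The deposited values are whole-number counts per gene with no normalization by the authors, and each column name equals the description of 1 sample. Per the submitters' processing notes, the tools were bcl2fastq (2.20.0.422), STAR (2.3) and featureCounts, with build mm10. Annotation release, strandedness of counting and handling of multi-mapped reads: not given in the sources used here.

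Symbols, places and exon lengths came from GENCODE M21, which matched 54587 of 55335 identifiers with their version. Hsd17b8 was found through a RefSeq synonym. CPM is a count scaled by its library total. The main test was the quasi-likelihood F-test of edgeR (4.0.16, R 4.3.3) on the whole table, with tissue as the factor, TMM scaling and filterByExpr (minimum count 10, total 15). P-values were adjusted by Benjamini-Hochberg over all genes at a threshold of 0.05. SE is the absolute log2 fold change over the square root of F. The code was tested on simulated data. Alternatives used DESeq2 1.42.0, limma-voom 3.58.1, other scalings and filters, a replicate block, and the omission of each library.

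The members and lists were chosen with earlier results of these data known. All 10 members are named. In each pathway list the 2 genes with the smallest p in each direction are named, with genes left out by the filter and genes that spell out a count of 5 or fewer. Of each marker list the gene with the highest mean in a tissue is named. Floors cover counting error only, since reads carry no molecular identifiers.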

Additional observations from a re-analysis of the deposited data

How the results depend on the processing

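The counts of 6 higher and 3 lower members, and of 14 higher and 11 lower pathway genes, stayed within 1.5 times under each of the 14 alternatives run, with 5 to 6 members higher and 2 to 4 lower, and 10 to 16 pathway genes higher and 10 to 15 lower. The balance of pathway calls was less stable. With upper-quartile scaling 12 pathway genes were higher and 15 lower. Among genes of at least 5 CPM, 10 were higher and 14 lower, and with library totals only, 13 and 13. No member changed direction. Over 139 alternative values of the 10 members, 12 lost a call (Fads2 and Srebf1) and 2 gained one (Elovl6). Over 569 values of the pathway genes, 24 lost and 22 gained a call. Fads2 could not be tested among genes of at least 5 CPM. The cause of these changes was not tested. Fasn ranged from 0.67 to 0.96, Scd1 from -3.15 to -2.90 and Mecr from 1.05 to 1.15. Scalings moved the median of all genes by at most 0.053 on the log2 scale. The 4 ratios moved by less than their spread with another pseudocount or without 1 library, though for Fasn over Acaca the difference, 0.04, also took the opposite sign without tumor replicate 1 or 2 or spleen replicate 1. A replicate block left 5 members higher and 3 lower, and 14 pathway genes higher and 12 lower. The numbers were not taken as pairs, since no label says that equal numbers mark the same mouse. Deviations from the tissue mean correlated at -0.016, 0.029 and 0.0057 between tumor and spleen libraries of equal number. Between those of unequal number they correlated at -0.03 to 0.017. With 3 libraries a tissue, such values cannot decide whether the libraries were paired. Fads2 had 14 to 31 counts a library, and Acacb 8 to 36 in tumor libraries, against 38 to 40 in spleen libraries.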
